A study of Mus musculus with 79 samples.

Results

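The genes described here lie side by side on mouse chromosome 7, in the 3.97 Mb between 123.98 and 127.95 Mb of build mm10. They were chosen by measured values, namely lower RNA signal of most of them in 2 mouse embryonic stem cell clones that lack a regulatory element elsewhere in the genome than in 1 wild-type clone. The rule took each transcript whose start falls in that window and kept 1 row per gene, the row with the highest mean signal in the retinoic acid time course. It gave 103 genes out of 19528 genes with reads in that table. The differences between each deletion clone and the wild-type clone were therefore used to find the segment, and below they are given only as a description: where edgeR calls on them are counted, nothing is read from those counts. The 5 Mb on each side, with 52 and 51 genes, served as the control.

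All cells derive from E14, an established line of mouse embryonic stem cells grown in serum with leukemia inhibitory factor, and retinoic acid was given at 1 uM to make them differentiate. The first set of 42 nuclear RNA libraries holds 3 clones: G4, a wild-type clone, and E3 and H12, clones of genotype E14;HoxTransEdel in which a transient enhancer of the Hoxb locus was deleted. Each clone was sampled before retinoic acid (0 h), early (2, 4 and 6 h) and late (24, 48 and 74 h), with 2 libraries at each of these 7 times. The second set holds 25 total RNA libraries of wild-type E14 cells from 0 to 72 h, with 2 to 4 libraries at each time. The last of these times is 72 h in the sample titles and 74 h in the label for treatment duration, and is called 72 h here. The 0 h group of this set holds only replicates 3 and 4, while the 72 h group holds replicates 1 to 4. The third set holds 12 nuclear RNA libraries of SCC1-mAID cells (E14;Rosa26::Tir1;Scc1-mAID-eGFP), whose cohesin subunit SCC1 can be degraded with auxin. They were untreated, given retinoic acid for 4 h, given 500 uM auxin for 6 h, or given both, with 3 libraries in each group. The wild-type genotype rests on 1 clone and each deletion clone is a single clone, so effects of the deletion and differences between clones cannot be told apart. The deleted element is not a gene and lies on another chromosome, and no row of the tables measures it. Where the labels do not say that libraries came from separate cultures, the p-values measure only the spread between libraries, which may be technical.

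In a diploid cell most genes are read from 2 copies, and losing or gaining a stretch of chromosome usually shifts the RNA of most genes in that stretch in the same direction. The segment is known from the human genome: a large part of it corresponds to band 16p11.2, where recurrent deletions and duplications are associated with neurodevelopmental conditions and with body weight. It is dense in housekeeping genes for chromatin, RNA and protein metabolism, with a smaller number of genes used by neurons, muscle and blood cells.

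The segment held 103 genes in 3.97 Mb, against 103 genes in 10 Mb of flanks. Of the members, 44 are read from the plus strand and 59 from the minus strand, and 21 overlap another gene. RefSeq promoter windows (build GRCm38.p6, 250 bases before to 50 bases after the start) matched 81 of the 103 members. Their median GC content was 57.7%, against 52.7% over all 27025 windows in the RefSeq table, and they held a median of 15 CG dinucleotides against 7. The GC box GGGCGG, on either strand, was in 53.1% of the member windows and in 35.9% of all windows. The TATA box TATAAA was in 6.17% against 14.2%, and the E-box CACGTG in 8.64% against 7.24%. The spaced retinoic acid motif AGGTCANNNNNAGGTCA was in 0 of the member windows and in 2 of all windows. A match here describes letters in the window and is not a site of binding. The following 4 windows are examples with and without a GC box, among members whose values are given below. They are Kdm8 near the left end of the segment, Zfp768 whose RNA rose with retinoic acid, and Spn and Mylpf whose RNA fell. Whether GC boxes go with the direction of response was not tested. Other members differ from these examples: the window of Zfp629, which rose, held no GC box, and that of Vkorc1, which fell, held a GC box. Some windows are set on another start than that of the transcript counted here, 839 bases away for Zfp629 and up to 6263 for Fbrs. Such windows need not hold the promoter of the counted transcript. Capitals mark the GC box on either strand, 1 in Kdm8, 3 in Zfp768, and 0 in Spn and Mylpf. The CG dinucleotides number 13, 35, 3 and 2 in the same order. Positions are chr7:125444370-125444669 (plus strand), chr7:127345265-127345564 (minus strand), chr7:127137774-127138073 (minus strand) and chr7:127211358-127211657 (plus strand).
Kdm8: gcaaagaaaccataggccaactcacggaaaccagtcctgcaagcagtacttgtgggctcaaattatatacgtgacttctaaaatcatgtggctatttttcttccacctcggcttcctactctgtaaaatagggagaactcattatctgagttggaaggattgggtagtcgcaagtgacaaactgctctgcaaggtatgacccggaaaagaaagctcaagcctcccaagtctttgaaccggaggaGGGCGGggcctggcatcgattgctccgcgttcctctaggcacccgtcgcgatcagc
Zfp768: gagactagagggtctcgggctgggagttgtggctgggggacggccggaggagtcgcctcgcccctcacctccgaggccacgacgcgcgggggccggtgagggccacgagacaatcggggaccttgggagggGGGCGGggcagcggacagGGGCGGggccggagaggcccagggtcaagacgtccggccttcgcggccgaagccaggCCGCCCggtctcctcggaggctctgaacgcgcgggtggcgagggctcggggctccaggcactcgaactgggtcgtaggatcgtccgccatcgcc
Spn: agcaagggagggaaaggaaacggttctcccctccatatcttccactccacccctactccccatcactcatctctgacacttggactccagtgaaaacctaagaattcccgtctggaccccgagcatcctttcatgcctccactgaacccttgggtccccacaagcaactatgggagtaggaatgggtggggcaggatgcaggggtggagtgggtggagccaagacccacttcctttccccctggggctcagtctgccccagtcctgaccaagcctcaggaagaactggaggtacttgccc
Mylpf: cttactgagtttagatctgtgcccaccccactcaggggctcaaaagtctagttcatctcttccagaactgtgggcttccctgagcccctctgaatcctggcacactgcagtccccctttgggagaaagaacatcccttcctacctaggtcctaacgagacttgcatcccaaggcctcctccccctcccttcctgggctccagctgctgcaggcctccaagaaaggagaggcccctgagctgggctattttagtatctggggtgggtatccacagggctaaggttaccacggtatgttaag

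All 103 members had at least 1 read in each table. The filter on low counts kept 92 members of 15925 genes in the clones, 91 of 15076 in the E14 time course and 84 of 14032 in the SCC1-mAID set. The 11 members that did not pass in the clones, such as Il21r and Zg16, averaged between 0.0160 (Mir762) and 0.525 (Mir7059) CPM (counts scaled to a common library total) over the 42 libraries. Reads assigned to genes numbered 4754296 to 10449928 per clone library, 2352162 to 21082444 in the E14 set and 3126321 to 7498984 in the SCC1-mAID set. Stem cell markers were present in all clones at 0 h: the summed level of 7 of them (Pou5f1, Sox2, Nanog, Esrrb, Zfp42, Klf4 and Tdgf1) was 1985 and 2032 CPM in the libraries of G4, 1838 and 1839 in E3, and 2313 and 2334 in H12. The clones differed later in markers of other cell types. At 74 h the summed level of 4 extra-embryonic endoderm markers (Gata4, Gata6, Sox17 and Dab2) was 129 and 196 CPM in G4, 133 and 156 in E3, and 492 and 526 in H12. At 48 h the summed level of 4 fibroblast markers (Col1a1, Col1a2, Dcn and Lum) was 455 CPM in one E3 library and 2197 in the other, against 378 and 386 in G4. Those E3 libraries also had the lowest correlation of any replicate pair of the clones (r = 0.976 across genes, with the other pairs at 0.986 or above). In bulk RNA, fewer cells of a type and less RNA per cell cannot be told apart. The part of these markers in the results below was not tested.

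At every time the members as a whole had lower RNA in both deletion clones than in G4. The segment took 0.482% to 0.602% of the gene reads in the 14 libraries of G4 (median 0.544%), 0.315% to 0.405% in the 14 of E3 (median 0.360%) and 0.280% to 0.443% in the 14 of H12 (median 0.377%). The lowest G4 library lay above the highest library of either deletion clone. On the flanks the ranges over all times overlapped, at 0.376% to 0.490% in G4, 0.369% to 0.432% in E3 and 0.374% to 0.430% in H12. At 48 and 74 h, however, the share on the flanks was also lower in both deletion clones, without overlap. At 48 h it was 0.432% and 0.436% in G4, 0.372% and 0.411% in E3, and 0.416% and 0.430% in H12. At 74 h it was 0.456% and 0.490% in G4, 0.432% and 0.418% in E3, and 0.396% and 0.427% in H12. As a percentage of G4 at the same time, the share on the segment averaged 66.3% in E3 (SD 3.12 over the 7 times, from 61.5% at 24 h to 71.1% at 48 h). In H12 the share averaged 67.7% (SD 4.21, from 59.7% at 48 h to 72.5% at 74 h). The reads on the segment were also divided by those on the flanks of the same library. This ratio ran from 0.984 to 1.54 in G4, from 0.759 to 1.05 in E3 and from 0.674 to 1.17 in H12. On that measure the highest deletion libraries overlapped the lowest of G4. As a percentage of G4 at the same time, the ratio in E3 ran from 61.7% at 4 h to 79.4% at 48 h, with 76.5% at 74 h. In H12 it ran from 61.2% at 48 h to 83.2% at 74 h. For reference, the share on the segment was 0.529% ± 0.025 (SD, n = 3) in untreated SCC1-mAID cells. In E14 cells at 0 h it was 0.602% ± 0.0043 (SD, n = 2). Those tables were normalized separately and were not tested against the clones.

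**Figure D1:**
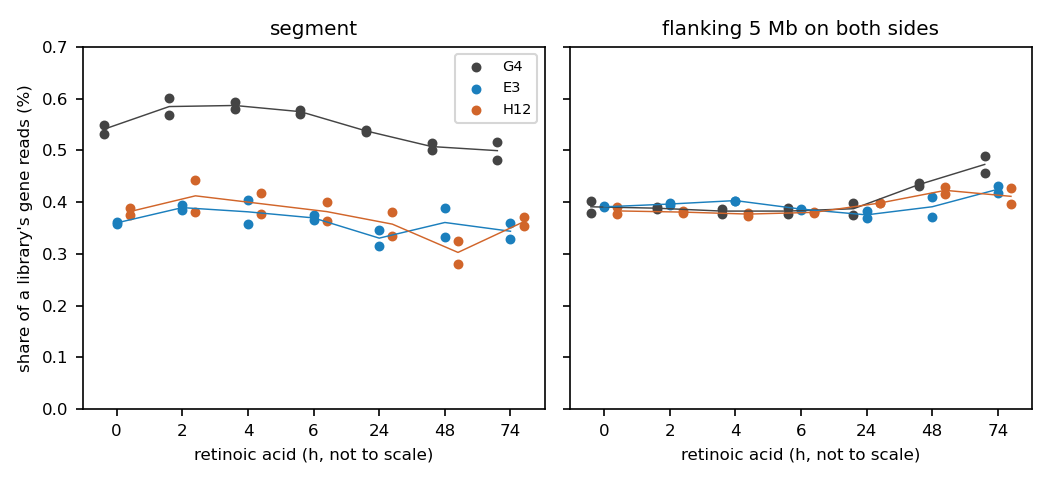
Share of each clone library's gene reads that fell on the segment (left) and on the flanking 5 Mb on both sides (right), in percent, against hours of retinoic acid. Points are libraries and lines join the means of 2. On the segment the G4 libraries lie between 0.482% and 0.602% and those of E3 and H12 lie between 0.280% and 0.443%. On the flanks the clones overlap over all times, but at 48 and 74 h both deletion clones lie below G4.

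Per gene, the log2 difference between E3 and G4, averaged over the 7 times, had a median of -0.63 over the 92 members tested (quartiles -0.74 and -0.52). The difference between H12 and G4 had a median of -0.64 (quartiles -0.80 and -0.47). The medians of the 79 flanking genes tested were 0.01 and 0.04. By edgeR's quasi-likelihood test with Benjamini-Hochberg adjustment (called below 0.05), 80 of the 92 members passed the threshold lower in E3 and 0 higher, where 12.7% of all genes were called, 7.04% lower and 5.66% higher. In H12, 81 passed it lower and 1 higher (Itgal), where 44.5% of all genes were called, 22.8% lower and 21.7% higher. Since this contrast chose the segment, the members' counts follow from the choice and are no result of a test. In the flanks 3 genes were lower and 5 higher in E3, and 15 lower and 23 higher in H12. On the log2 scale a ratio of 2 to 3 is -0.58 and a ratio of 1 to 2 is -1. DNA was not measured, so copy number and other sources of lower RNA cannot be told apart.

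**Figure D2:**
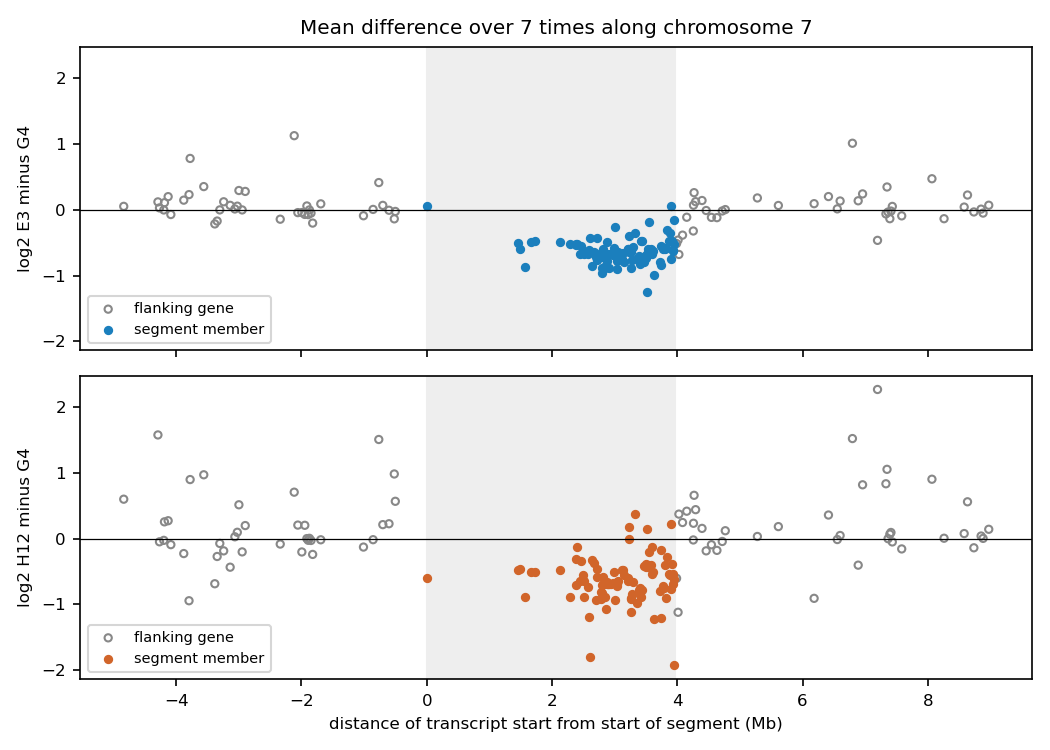
Log2 difference from G4, averaged over the 7 times, for each tested gene against the distance of its start from the start of the segment, for E3 (top) and H12 (bottom). Filled points are the 92 members (grey band) and open points the 79 flanking genes. Members centre on -0.63 and -0.64, and flanking genes on 0.01 and 0.04.

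The ends of the lower stretch could be read only as closely as genes lie there. At the left end the first member is Hs3st4 (chr7:123983181-124398989, plus strand), a heparan sulfate sulfotransferase, with a log2 difference of 0.07 in E3 and -0.60 in H12. The next tested members are Kdm8 (chr7:125444620-125462268, plus strand), a JmjC-domain hydroxylase (-0.51 and -0.48), and Nsmce1, a subunit of the SMC5/6 complex (-0.60 and -0.47). Outside that end lie Zkscan2 (-0.02 and 0.57), Aqp8 (-0.14 and 0.98) and Lcmt1 (-0.01 and 0.23). Hs3st4 was thus close to G4 in E3, like the genes outside, and below G4 in H12, like the genes inside. Its 14 libraries ran from 46.3 to 157 CPM in G4 (median 91.5), from 58.3 to 147 in E3 (median 93.3) and from 23.7 to 153 in H12 (median 53.0).

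At the right end the last members inside the window are Kat8 (chr7:127912517-127925762, plus strand), an acetyltransferase of histone H4 (-0.63 and -0.69), Prss8, a membrane serine protease (-0.15 and -1.93), and Prss36 (-0.52 and -0.61). Genes outside that end include Pycard, the inflammasome adaptor (-0.46 and -1.12), and Trim72 (-0.68 and 0.37, at 0.349 to 11.8 CPM). Pycard was thus called lower in both deletion clones although it lies past the window's right end, so the window's end need not be the end of the lower stretch. Members fill the window unevenly: cut into 4 stretches of equal length, it holds 2, 7, 37 and 57 members from left to right. The last 3 of these stretches had medians of -0.51, -0.67 and -0.63 in E3 and -0.51, -0.69 and -0.60 in H12.

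The lower level was present before retinoic acid and at each later time. At 0 h the median over the 92 members was -0.62 in E3 and -0.61 in H12. In E3 the later medians were -0.57 at 2 h, -0.68 at 4 h, -0.71 at 6 h, -0.70 at 24 h, -0.55 at 48 h and -0.56 at 74 h. In H12 they were -0.59, -0.63, -0.65, -0.68, -0.79 and -0.55 at the same times. The medians of the flanking genes stayed between -0.07 and 0.13 in both clones. Counting genes whose 2 libraries in the deletion clone both lay below both G4 libraries at all 7 times gave 43 of 92 members in E3, where 1.11% of all genes tested did so. In H12 it gave 41 of 92 members, where 3.15% of all genes did so. Among the 79 flanking genes the counts were 1 and 2. Being based on the contrast that chose the segment, these counts describe it and support nothing further.

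**Figure D3:**
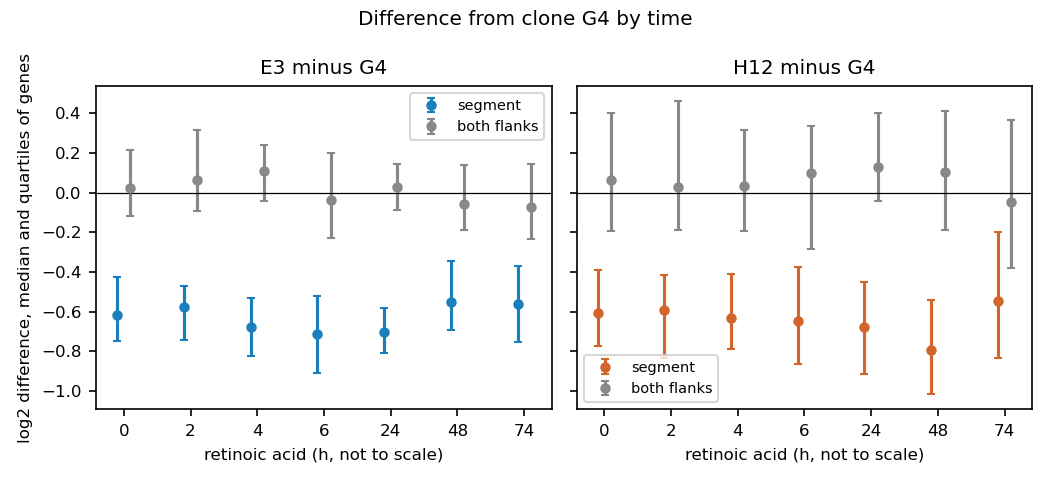
Median log2 difference from G4 (points) and quartiles over genes (bars) at each time, for the 92 tested segment members (colour) and the 79 flanking genes (grey), in E3 (left) and H12 (right). Segment medians lie between -0.55 and -0.79 and flank medians between -0.07 and 0.13.

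To place the level of each clone, untreated SCC1-mAID cells were set beside each clone at 0 h, gene by gene over 13916 genes tested in both, with differences centred on the median of all genes. The 84 members tested in both had a median of 0.25 in G4, -0.29 in E3 and -0.34 in H12. The left flank had 0.23, 0.24 and 0.34, and the right flank 0.38, 0.33 and 0.24. The segment median lay between those of the flanks in G4 and below both in E3 and H12. The same SCC1-mAID values stand behind all 3 clones, so the order of the clones repeats the 0 h difference that chose the segment. The tables were normalized separately, and no test was made.

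The size of the difference varied less among the members with more reads. The 46 members with the higher mean CPM (at least 20.97) had a median of -0.62 in E3 with an SD over genes of 0.15, and -0.62 with an SD of 0.24 in H12. The 46 with the lower mean CPM (up to 19.4) had medians of -0.67 and -0.68 with SDs of 0.24 and 0.43. The median standard error of a gene's own difference was 0.07 in the first group and 0.12 in the second, in both clones. In both groups and both clones the spread over genes was thus larger than the median error of a single gene. Among the 10 members with the most reads, which long genes enter more easily since introns are counted, all had differences below 0 in both clones. They were Srcap, Xpo6, Gtf3c1, Aldoa, Eif3c, Atxn2l, Spns1, Setd1a, Maz and Fbxl19. Srcap, the ATPase that loads histone variant H2A.Z, ran from 480 to 665 CPM in G4 (median 577), from 281 to 474 in E3 (median 358) and from 292 to 495 in H12 (median 435). The ranges of H12 and G4 overlapped only through 1 H12 library at 2 h (495) and the lowest G4 library at 0 h (480), and at each time both libraries of each deletion clone lay below both of G4. Eif3c, a subunit of translation initiation factor 3, ran from 225 to 363 CPM in G4, from 167 to 229 in E3 and from 144 to 230 in H12. Cln3, a lysosomal membrane protein, ran from 31.7 to 49.5 CPM in G4 (median 46.5), from 21.8 to 33.1 in E3 (median 29.1) and from 17.3 to 22.6 in H12 (median 19.0), so that H12 lay below the whole G4 range at every time.

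**Figure D4:**
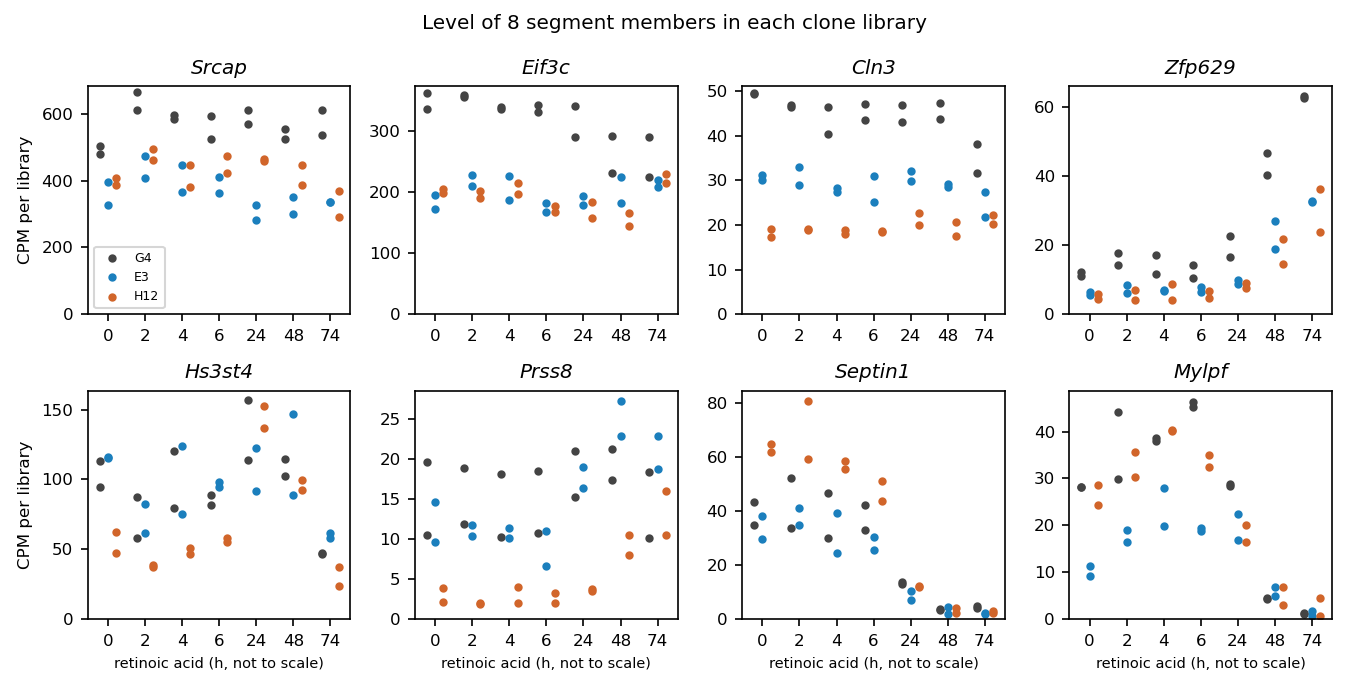
CPM of 8 members in every clone library against hours of retinoic acid, with 2 libraries per clone and time. Srcap, Eif3c and Cln3 are lower in both deletion clones and Zfp629 is lower in both while it rises in all 3 clones. In H12, Hs3st4 lies below both G4 libraries at each time but 24 h, and Prss8 at each time but 74 h. Septin1 is high in H12 at 0 to 6 h.

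The members are grouped by function next, as a description by the contrast that chose the segment, which says nothing about function. Over all 92 tested members, 90 lay below 0 in E3 and 88 in H12, against 8119 and 7952 of all 15925 genes. The interval shared with the recurrent human 16p11.2 deletion has 27 members, of which 25 were tested. All 25 lay below 0 in both clones, with medians of -0.71 and -0.69. Its examples with the most reads were Aldoa, a glycolytic aldolase (-0.71 ± 0.08 SE in E3 and -0.58 ± 0.08 in H12), Maz, a zinc-finger transcription factor (-0.72 and -0.69), Taok2, a kinase that acts on the cytoskeleton of neurons (-0.68 and -0.69), and Ppp4c, the catalytic subunit of phosphatase 4 (-0.59 and -0.70). Aldoa has processed copies elsewhere in the genome, so its counts are uncertain if reads were shared among them. Taok2 ran from 105 to 147 CPM in the 14 libraries of G4, from 65.6 to 90.4 in E3 and from 52.8 to 90.6 in H12, with no overlap. Mapk3, the kinase ERK1, ran from 43.3 to 61.4 CPM in G4, from 21.8 to 46.9 in E3 and from 19.3 to 39.8 in H12. Of the 9 members in the distal 16p11.2 interval 8 were tested, and all lay below 0 in both clones (medians -0.59 and -0.60). They include Atxn2l, an RNA-binding protein (-0.64 in both clones), Spns1, a lysosomal transporter (-0.53 and -0.71), and Sh2b1, an adaptor of the leptin and insulin receptors (-0.62 and -0.56).

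All 25 members that act in chromatin and transcription lay below 0 in both clones (medians -0.64 and -0.69). The examples with the most reads were Srcap (-0.64 and -0.44), Gtf3c1, the largest subunit of the factor that recruits RNA polymerase III (-0.48 and -0.51), and Setd1a, a histone H3 lysine methyltransferase (-0.60 and -0.40). All 6 members of RNA and protein synthesis lay below 0 in both (medians -0.62 and -0.65), among them Xpo6, the exporter of actin from the nucleus (-0.48 in both), and Eif3c (-0.67 and -0.74). So did all 8 members of metabolism (medians -0.62 and -0.53), among them Cdipt, the phosphatidylinositol synthase (-0.57 and -0.51), and Bckdk, the kinase of branched-chain ketoacid dehydrogenase (-0.62 and -0.53). The 5 members of genome maintenance had medians of -0.60 and -0.64, and Nfatc2ip, a SUMO-like-domain protein, was near G4 in H12 (-0.12). Of 11 members of synapse and membrane traffic, 10 lay below 0 in E3 (all but Hs3st4) and 11 in H12 (medians -0.66 in both). Of 7 members used in immune cells 5 were tested, and 5 lay below 0 in E3 and 4 in H12, where Itgal, an integrin of leukocytes, had 0.38. The summed level of Cd3e, Cd79a and Ptprc, markers of T and B cells, reached at most 7.84 CPM in the groups examined, and the part of blood cells in these values was not tested.

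Averaged over both clones, the members with the lowest differences were Apobr, an apolipoprotein B receptor (-1.12), Zfp629 (-1.10), Prss8 (-1.04), Gm4532 (-0.88 in E3 and -1.12 in H12) and Doc2a, a calcium sensor of synaptic vesicles (-0.96). Those with the highest were Prss53 (0.14), Itgal (0.02), Septin1 (-0.11), the small nucleolar RNA Snora30 (-0.19) and Hs3st4 (-0.27). Zfp629, a zinc-finger protein, had 12.2 and 11.0 CPM in the libraries of G4 at 0 h, 6.50 and 5.46 in E3, and 5.86 and 4.45 in H12. At 74 h the same gene had 62.5 and 63.1 CPM in G4, 32.3 and 32.8 in E3, and 23.7 and 36.3 in H12. It was thus lower in both deletion clones at either end of the time course while it rose in all 3 clones. The clone tables count reads over the whole span of a gene, introns included, and the strand used in counting is not given in the sources used here. Values of members that overlap another gene are therefore uncertain. Among those named, Prss53 overlaps Zfp646, Ccdc189 overlaps Phkg2, Doc2a overlaps Ino80e, Snora30 lies in Srcap, and Mir7060 in Fbrs. Prss8 and Kat8 overlap only in the short stretch chr7:127925717-127925762.

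The comparison of E3 with H12 did not enter the rule and was tested. Across the segment the deletion clones were level, with a median log2 difference of 0.00, but single members differed. The segment was chosen as lower in both of them, so the level median may follow from that choice and is a description. By edgeR's quasi-likelihood test, 15 members were higher in E3 and 16 lower out of 92, where 40.9% of all genes were called (20.2% higher and 20.7% lower). The share called on the segment, 33.7%, was thus below that over all genes, and on the flanks 9 were higher and 18 lower out of 79. Without replicate 1 of H12 the members higher in E3 fell to 9, and those lower fell to 9 without replicate 2 of H12 and to 10 without replicate 1 of E3.

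Prss8 stood furthest apart. In G4 it had 19.6 and 10.5 CPM at 0 h and 18.4 and 10.1 at 74 h. In E3 it had 14.6 and 9.66 at 0 h and 18.8 and 22.9 at 74 h. In H12 it had 3.91 and 2.14 at 0 h, 3.26 and 1.97 at 6 h, 8.04 and 10.5 at 48 h, and 16.1 and 10.5 at 74 h. The H12 libraries were thus below both other clones up to 48 h and overlapped G4 at 74 h. Over all times Prss8 was higher in E3 than in H12 by 1.77 ± 0.15 (log2, SE; adjusted p = 8.6e-11, edgeR). Its neighbour Kat8, which overlaps it, had similar differences from G4 in both clones (-0.63 and -0.69).

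Cln3 was higher in E3 than in H12 by 0.57 ± 0.06 (adjusted p = 4.9e-10), and Mvp, the major vault protein, by 0.66 ± 0.08 (adjusted p = 2.4e-08), both by edgeR. Mvp ran from 22.6 to 39.9 CPM in G4, from 15.9 to 33.6 in E3 and from 12.2 to 24.7 in H12. Hs3st4 was higher in E3 by 0.66 ± 0.09 (adjusted p = 8.4e-07, edgeR). It had 116 and 115 CPM at 0 h in E3 and 94.3 and 113 in G4, against 47.4 and 62.4 in H12. At 24 h H12 had 153 and 137 CPM, in the range of G4 at that time (114 and 157). Apobr (1.38 ± 0.32, adjusted p = 0.00092) and Ctf1, the cytokine cardiotrophin (0.66 ± 0.16, adjusted p = 0.001), completed the 5 largest among those higher in E3 by edgeR. Apobr reached at most 4.11 CPM in any library.

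Among members lower in E3, Mir7060 (-1.38 ± 0.30, adjusted p = 0.00035, edgeR) reached at most 1.65 CPM and lies in Fbrs. Itgal was lower in E3 than in H12 by -0.72 ± 0.15 on the log2 scale (adjusted p = 0.00016, edgeR). Septin1, a filament-forming GTPase, was lower by -0.57 ± 0.12 (adjusted p = 0.00025, edgeR). At 0 h it had 34.9 and 43.3 CPM in G4, 29.6 and 38.1 in E3, and 64.8 and 62.0 in H12, so that H12 was above G4 there. Mylpf, the regulatory light chain of fast muscle myosin, was lower in E3 by -0.63 ± 0.13 (adjusted p = 0.00023, edgeR), but without replicate 1 of H12 the difference was -0.24 and not called. At 0 h Mylpf had 28.1 and 28.2 CPM in G4, 9.21 and 11.3 in E3, and 28.5 and 24.3 in H12, so that only E3 was low. Ccdc189 was lower by -0.54 ± 0.13 (adjusted p = 0.0012, edgeR) and overlaps Phkg2.

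At 48 h the median log2 difference of E3 from H12 was 0.31 on the segment, against 0.00 over all times, and -0.14 on the flanks. There 14 members were higher in E3 and 1 lower, where 7.91% of all genes were called higher and 8.04% lower. The segment took 0.389% and 0.333% of reads in the E3 libraries, 0.280% and 0.325% in those of H12, and 0.514% and 0.501% in those of G4. Single libraries decided the count: without replicate 1 of E3 it was 1 higher and 0 lower with a median of 0.12, and without replicate 1 of H12 it was 1 and 0 with a median of 0.20. Without replicate 2 of E3 it was 23 and 1, and without replicate 2 of H12 10 and 0. The E3 libraries at this time are those with unequal fibroblast markers, whose part in this was not tested.

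Whether the difference from G4 changed with differentiation was tested as the change from 0 to 6 h to 24 to 74 h. Over the segment the median change was 0.01 in E3 and -0.05 in H12. Over the flanking genes it was -0.07 in E3 and 0.02 in H12. In E3 edgeR called 2 members, both moving up, where 2.83% of all genes were called (1.46% up and 1.36% down). They were Mylpf (1.09 ± 0.30, adjusted p = 0.042) and Vkorc1, the vitamin K epoxide reductase (0.69 ± 0.19, adjusted p = 0.043). Vkorc1 had 33.0 and 27.6 CPM at 0 h in G4 and 17.2 and 14.1 in E3, and at 74 h it had 15.7 and 11.5 in G4 and 12.3 and 17.8 in E3. The clones were apart at 0 h and overlapped at 74 h. Both calls were lost without replicate 2 of E3, without replicate 2 of G4 and without the 48 h time.

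In H12 edgeR called 4 members that moved up and 6 that moved down, where 15.7% of all genes were called (10.3% up and 5.45% down). Those that moved up were Apobr (1.90 ± 0.64, adjusted p = 0.040), Prss8 (1.33 ± 0.31, adjusted p = 0.0025), Hs3st4 (0.64 ± 0.19, adjusted p = 0.017) and Mvp (0.45 ± 0.15, adjusted p = 0.043). The 5 largest that moved down were Ccdc189 (-1.07 ± 0.24, adjusted p = 0.002), Septin1 (-0.93 ± 0.24, adjusted p = 0.0068), Zfp689 (-0.83 ± 0.21, adjusted p = 0.0054), Qprt, an enzyme of NAD synthesis (-0.64 ± 0.17, adjusted p = 0.0087), and Hirip3, which binds the histone chaperone HIRA (-0.52 ± 0.15, adjusted p = 0.018). These members did not share 1 course. In Septin1 H12 lay above both G4 libraries at 4 of the 7 times, 0 h among them, and at 74 h it had 2.91 and 2.10 CPM against 4.16 and 4.76 in G4. Hirip3 in H12 lay below both G4 libraries at 7 of 7 times, and Qprt at 6. Without replicate 1 of G4, 1 member moved up and 0 down. Without replicate 1 of H12 the counts were 1 and 3, and without replicate 2 of H12 they were 2 and 3. Without replicate 2 of G4 3 members moved down, and without the 74 h time 1 moved up. Extra-embryonic endoderm and fibroblast markers were higher in H12 than in G4 at 74 h, at 492 and 526 against 129 and 196 CPM and at 916 and 920 against 126 and 241 CPM. Their part in these changes was not tested.

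Retinoic acid moved members of the segment in both directions. In wild-type E14 cells at 72 h, edgeR called 10 members higher and 32 lower than at 0 h out of 91, with a median of -0.12, where 59.8% of all genes were called (30.4% higher and 29.3% lower). The authors' size factors, which shift the median of all genes by 0.27, gave 18 higher and 19 lower, and limma on the authors' signal gave 16 and 19. In the clone G4 at 74 h, 16 members were higher and 24 lower out of 92, where 56.3% of all genes were called (28.5% higher and 27.8% lower). Without replicate 2 of G4 9 were higher and 15 lower, and without replicate 1 of G4 14 were lower. E3 had 15 higher and 18 lower, where 56.2% of all genes were called (28.1% in each direction). H12 had 22 higher and 18 lower, where 59.5% were called (29.2% higher and 30.3% lower). The share of members called was below that of all genes in each of these 4 comparisons, at 46.2%, 43.5%, 35.9% and 43.5%.

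Early times moved few members. At 2 h 0 members were called in E14 cells by edgeR, where 0.497% of all genes were called (0.405% higher and 0.0929% lower). At an unadjusted p below 0.05, 2 members were higher and 4 lower, and no other tool was run at this time. At 4 h 1 member was higher and 1 lower, where 2.44% were called (1.53% higher and 0.909% lower). They were Slx1b, the catalytic subunit of a structure-specific endonuclease, with 28.6 and 27.7 CPM at 0 h and 39.1, 67.4, 41.2 and 41.4 at 4 h (0.74 ± 0.19, adjusted p = 0.03, edgeR), and Spn, the leukocyte sialophorin CD43 (-1.01 ± 0.21, adjusted p = 0.0061). At 6 h Spn alone was called (-1.22 ± 0.21, adjusted p = 0.00055, edgeR), where 3.96% of all genes were called (2.16% higher and 1.8% lower). At 24 h 5 members were higher and 14 lower, where 27.4% were called (14.1% higher and 13.3% lower). At 48 h 14 were higher and 26 lower, where 55.7% were called (28.9% higher and 26.9% lower).

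Spn fell furthest in the clone G4 and nearly so in E14 cells. In E14 cells it had 71.7 and 61.1 CPM at 0 h, 31.9, 37.3, 33.7 and 29.6 at 4 h, and 7.55, 5.07, 1.81 and 3.30 at 72 h, with no overlap between these times. The log2 change at 72 h was -3.90 ± 0.27 (adjusted p = 1.3e-11, edgeR). In G4 it had 54.4 and 43.6 CPM at 0 h and 1.46 and 0.866 at 74 h, a change of -5.34 ± 0.40 (adjusted p = 1.4e-12). In the deletion clones it started lower, at 34.4 and 18.1 in E3 and 28.9 and 30.7 in H12, and ended at 0.311 and 1.19 in E3 and at 2.91 and 1.12 in H12. Its promoter window, printed above, held no GC box.

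Septin1 and Mylpf fell as well. Septin1 had 114 and 112 CPM in E14 cells at 0 h and 9.53, 13.0, 1.81 and 3.72 at 72 h, a change of -3.99 ± 0.40 (adjusted p = 5.3e-08, edgeR). In G4 its change was -3.14 ± 0.30 (adjusted p = 1.9e-10). Mylpf had 100.9 and 97.6 CPM in E14 cells at 0 h and 50.3, 45.0, 14.8 and 9.91 at 72 h, in the order of replicates 1 to 4, so replicates 1 and 2 lay above 3 and 4. Its change was -1.71 ± 0.47 in E14 cells (adjusted p = 0.0039) and -4.53 ± 0.40 in G4 (adjusted p = 4.6e-11, edgeR). With the 72 h libraries of replicates 3 and 4 alone, the numbers that the 0 h group holds, the change of Mylpf in E14 cells was -2.997 (adjusted p = 0.00011, edgeR), an alternative chosen after seeing the data.

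The members that rose furthest in G4 included a pair of zinc-finger genes. Zfp768 had 4.36 and 3.45 CPM at 0 h and 22.5 and 21.1 at 74 h in G4, a change of 2.47 ± 0.27 (adjusted p = 3e-09, edgeR). In E14 cells it had 3.45 and 4.35 at 0 h and 12.8, 13.3, 17.2 and 26.0 at 72 h, a change of 2.13 ± 0.29 (adjusted p = 6.1e-07). In the deletion clones Zfp768 reached 11.3 and 15.6 CPM (E3) and 9.04 and 14.7 (H12) at 74 h, below both G4 libraries. Its promoter window held 3 GC boxes and 35 CG dinucleotides. The window of Zfp629, which also rose, held no GC box and 8 CG dinucleotides, but is set on a start 839 bases from that of the counted transcript. Zfp629 rose by 2.44 ± 0.26 in G4 (adjusted p = 2.8e-09) and by 2.04 ± 0.25 in E14 cells (adjusted p = 1e-07, edgeR). Il4ra, the receptor chain shared by interleukins 4 and 13, rose by 1.80 ± 0.34 in G4 (adjusted p = 4.6e-05) and by 1.59 ± 0.30 in E14 cells (adjusted p = 6.8e-05, edgeR). In G4 D430042O09Rik rose by 1.56 ± 0.19 (adjusted p = 2e-08, edgeR).

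Over the 90 members tested in both wild-type sets, the changes in E14 cells at 72 h and in G4 at 74 h had Pearson's r of 0.58 and Spearman's rho of 0.52, as a description across neighbouring genes that share libraries. They had the same sign for 61 members. Of 42 members called in E14 cells and 40 in G4, 26 were called in both, 61.9% of the first and 65% of the second. Over all 14745 genes tested in both sets, 43.1% were called in both, so the 26 of 90 members are not read as particular to the segment. Of these 7 rose and 17 fell in both, and Nupr1 and Taok2 went opposite ways. The call of Nupr1 in E14 cells was lost with the 72 h libraries of replicates 3 and 4 alone (0.83, adjusted p = 0.34, edgeR, against 1.60 with all 4). Taok2 had 135 and 143 CPM in E14 cells at 0 h and 71.3, 85.2, 72.3 and 73.5 at 72 h (-0.88 ± 0.11, adjusted p = 1e-07, edgeR), while in G4 it was higher at 74 h (0.38 ± 0.15, adjusted p = 0.03). E14 RNA was total and clone RNA nuclear, and the part of that in such differences was not tested.

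**Figure D5:**
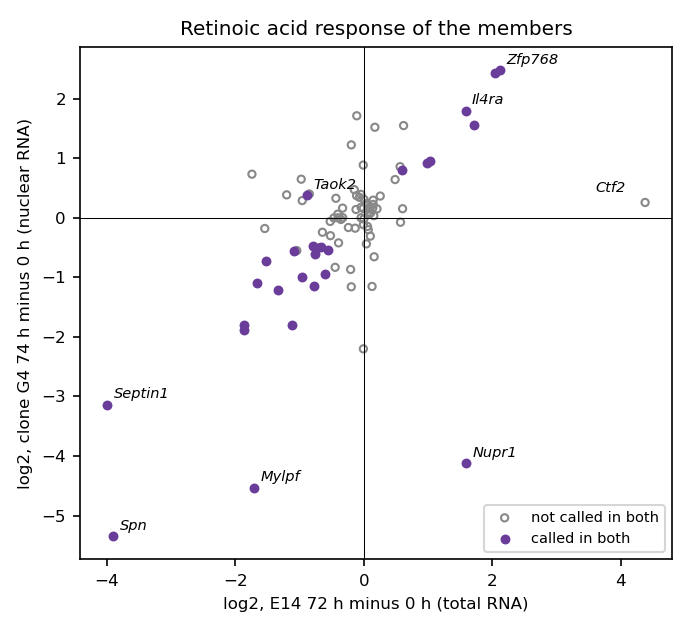
Log2 change with retinoic acid of the 90 members tested in both wild-type sets, in E14 cells at 72 h (horizontal) and in clone G4 at 74 h (vertical). Purple points are the 26 called in both. Spn and Septin1 lie low on both axes and Zfp768, Zfp629 and Il4ra high on both.

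Counts by function are set beside the shares of all genes called, 28.5% higher and 27.8% lower in G4 and 30.4% and 29.3% in E14 cells. In G4 6 of 25 tested genes of the 16p11.2 interval rose and 6 fell, and in E14 cells 2 rose and 11 fell. Of 25 chromatin and transcription genes 7 rose and 3 fell in G4, and 3 rose and 6 fell in E14 cells. Of 11 synapse and membrane traffic genes 3 rose and 2 fell in G4, and 0 rose and 6 fell in E14 cells. Of 6 genes of RNA and protein synthesis 0 rose and 2 fell in G4, and 0 rose and 1 fell in E14 cells. Of 8 metabolism genes 0 rose and 2 fell in G4, and 0 and 3 in E14 cells. Of 5 genome maintenance genes 0 rose and 2 fell in each set. Of 5 tested immune genes 1 rose and 3 fell in G4, and 1 and 1 in E14 cells. Of 8 tested genes of the distal 16p11.2 interval 0 rose and 3 fell in each set. With 5 to 25 genes in a list, these counts are no result about the lists. The counts in E14 cells depend on the size factors as given above.

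Auxin treatment, meant to deplete the cohesin subunit SCC1, was given to SCC1-mAID cells, and SCC1 protein is not measured in these tables. Auxin for 6 h left the segment without a called member: edgeR called 0 higher and 0 lower out of 84, where 0.235% of all genes were called (0.0998% higher and 0.135% lower). At an unadjusted p below 0.05, 0 members were higher and 7 lower. DESeq2 called 1 member lower. Retinoic acid for 4 h moved the same pair of genes as in E14 cells. Slx1b had 13.9, 13.9 and 11.5 CPM untreated and 29.1, 29.9 and 25.2 with retinoic acid (1.08 ± 0.16, adjusted p = 0.00049, edgeR). Spn had 84.3, 68.4 and 89.2 CPM untreated and 48.2, 33.8 and 43.7 with retinoic acid (-0.94 ± 0.18, adjusted p = 0.0057). The groups did not overlap for either gene, and 2.57% of all genes were called (1.85% higher and 0.72% lower). With the authors' size factors 0 members were called in either direction, and without replicate 3 the call of Spn was lost (-0.88).

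With auxin present, retinoic acid raised 2 members and lowered 0, where 2.63% of all genes were called (1.82% higher and 0.812% lower). Slx1b had 14.6, 15.6 and 17.7 CPM with auxin alone and 26.4, 27.6 and 23.3 with both (0.69 ± 0.16, adjusted p = 0.024, edgeR). Mylpf had 59.8, 50.2 and 41.8 CPM with auxin alone and 112, 74.3 and 107 with both (0.95 ± 0.18, adjusted p = 0.0046). Without auxin Mylpf overlapped between untreated (82.9, 85.3 and 70.6) and retinoic acid (86.7, 67.6 and 79.3). Spn had 58.9, 43.1 and 55.8 CPM with auxin alone and 41.6, 31.3 and 46.4 with both, which overlap. Cells given both agents, set against retinoic acid alone, had 0 members called by edgeR, where 0.363% of all genes were called (0.0428% higher and 0.321% lower). At an unadjusted p below 0.05, 1 member was higher and 1 lower. Whether the response to retinoic acid itself differs with auxin was not tested.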

How the data were processed

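RNA was sequenced as ribosome-depleted, directional, paired reads, per the labels' protocols, in 79 libraries. The submitters' processing notes name STAR, Bowtie2, SAMtools, DESeq2 and the builds mm10 and dm6 without versions, and fly SG4 cells were added for calibration, per the labels' protocols. The 3 tables deposited by the authors hold a normalized signal per transcript that is read count divided by a size factor of each library, as the spacing of the values shows. Whole reads were recovered from those steps (at least 99.9966% of values whole within 0.1 read in each library). Whether the size factors rest on the fly reads is not given in the sources used here.

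One transcript per gene was kept, as the rule says. Reads were tested with edgeR 4.0.16 (R 4.3.3, quasi-likelihood with robust dispersion, TMM factors, filterByExpr) across all genes of each table, with 1 group per clone and time, per E14 time or per treatment, and Benjamini-Hochberg adjustment. Genes below an adjusted p of 0.05 were called. CPM are gene reads scaled to a common library total, and are not per length, so levels were not compared between genes. Each table was fitted on its own. The tables of clones and SCC1-mAID cells count whole gene spans: transcripts of the same span had equal reads in 3745 of 3745 and 3729 of 3729 sets, against 663 of 3747 in the E14 table. 58 transcripts whose symbols had turned into dates were read back by accession. The fits were run on simulated data with the same spread for every gene and no deviation shared by replicate number. Real libraries share such deviations in part, so the simulation does not show how the fits behave on them. Alternatives were the size factors of DESeq2 and of the authors, no filter, DESeq2 1.42.0, limma 3.58.1 on log2(signal + 1) and log2(signal + 0.5), a replicate block, and leaving out each replicate. Leaving out the 48 h or 74 h time or each 48 h library, or replicates 1 and 2 of E14 at 72 h, was added after seeing the data. Replicates differed by more than sampling noise in each pair.

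Members and lists were chosen with earlier results of these data known. Named genes were the 3 nearest each end and the 3 outside it, the 10 with the most reads, the 5 lowest and 5 highest by the mean of both clone differences, up to 5 in each direction in each tested comparison, and the members with the most reads in each list. Others are named where a count or an exception asks for it, after their values were seen. Coordinates are from the tables (mm10) and promoters from RefSeq. A few genes that the rule for named genes gives are not reported here.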

Additional observations from a re-analysis of the deposited data

Results flagged for a closer look

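The difference from G4 changed between the early times (0 to 6 h) and the late times (24 to 74 h) by the test of that change itself, in edgeR's fit of all clones. In E3 these changes were 1.09 for Mylpf and 0.69 for Vkorc1 on the log2 scale. In H12 they were -1.07 for Ccdc189, -0.93 for Septin1, -0.83 for Zfp689, -0.64 for Qprt and -0.52 for Hirip3, and 1.90 for Apobr, 1.33 for Prss8, 0.64 for Hs3st4 and 0.45 for Mvp. Each was lost under at least 2 of the alternatives tried, and the adjusted p-values stand in the report. Whether they differ between E3 and H12 was not tested. In 15 groups of 4 or more libraries or values, no value stood far enough from the others to be set apart, where chance alone does so in about 1 in 20.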

How the results depend on the processing

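The median difference of the segment kept its direction under all 15 alternatives, at -0.65 to -0.61 in E3 and -0.73 to -0.58 in H12. Leaving out 1 replicate gave 9 to 17 members higher and 9 to 18 lower in E3 against H12. For the late minus early change in E3, it gave 0 to 3 higher. Other settings gave 4 higher with DESeq2, 0 with limma at either pseudocount, 0 without the 48 h time, 1 without the 74 h time, and 5 higher and 1 lower with the replicate block. In H12 leaving out 1 replicate gave 1 to 4 higher and 0 to 6 lower, and without the 74 h time 1 was higher. In G4 at 74 h it gave 9 to 17 higher and 14 to 25 lower. In E14 cells at 72 h the authors' size factors gave 18 higher and 19 lower, and limma gave 16 and 19 at either pseudocount. With the 72 h libraries of replicates 3 and 4 alone 9 were higher and 27 lower, and the calls of Apobr (-2.40, adjusted p = 0.063, edgeR) and Nupr1 were lost. For retinoic acid in SCC1-mAID cells the authors' size factors and limma at either pseudocount gave 0 higher and 0 lower, leaving out 1 replicate gave 0 to 1 lower, and the replicate block gave 2 lower. For auxin 1 member was lower with DESeq2, 2 without the filter and 1 with the replicate block. The causes were not tested. Of the alternatives for named genes, 544 kept direction and side of the threshold, 61 kept direction but lost the call, and 0 reversed.

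Libraries with the same replicate number deviated together in part, though not in all pairs. The main fit left the replicate number out, and the replicate block is among the alternatives above. Libraries of one clone with the same number correlated above 0.1 in 76 of 126 pairs, and those of different clones in 104 of 294. Across all clones, 38 of 42 libraries correlated best with a library of their own number. The counts for E14 were 28 of 67 pairs and 19 of 25 libraries, and for SCC1-mAID 10 of 18 and 8 of 12. In a clone group of 2 libraries, the deviations from the group mean are equal with opposite sign. The clone counts thus hold each correlation 2 times, and their pairs and libraries are not independent. How often such counts arise by chance was not tested. With 2 libraries per clone and time, and a median standard error of 0.12 for the members with fewer reads, smaller differences of single members were not resolved at this depth.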
